A study of Mus musculus with 6 samples.

Results

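Open chromatin intervals that carried an ATAC-seq peak in Pax6-HIGH cells and another in Pax6-OFF cells, but none in Pax6-ON cells, are described here. Peaks of the 3 lines on chromosomes 1 to 19 were merged wherever they shared 1 bp or more, which gave 34742 union intervals. Of these, 4478 held at least 1 Pax6-HIGH peak and at least 1 Pax6-OFF peak and no Pax6-ON peak, and they are called members below. The members were selected on the peak calls themselves, so the presence of both peaks and the absence of the third is the selection and not a result. With the same number of peaks taken from each line (9821), the members numbered 1539, of which 210 were distal. Members made up 12.9% of all union intervals, 27.0% of the 11693 promoter intervals and 5.73% of the 23049 distal intervals.

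ATAC-seq cuts accessible DNA with the Tn5 transposase, and a peak marks a place where fragments pile up above what the surrounding sequence gives. The 3 mouse lines, each grown in serum-containing medium without further treatment, were β-TC3 (Pax6-HIGH, from an insulinoma), MV+ (Pax6-ON, from lens epithelium in culture) and RAG (Pax6-OFF, from a renal adenocarcinoma). Each line had 2 replicate libraries made from 50000 nuclei, and nuclei of MV+ cells were released with 0.2% NP40 while the other lines received 0.1%. Both replicates of a line were pooled by the authors in 1 peak call, so each value below is 1 number per line with no replicate error, and the line, its origin and its nuclei preparation cannot be told apart.

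Promoters of genes used by most cells sit in CpG-rich DNA that stays open in nearly every cell type. Distal elements such as enhancers are open in fewer cell types and hold the binding sites of the factors that run in those cells. A site shared by an islet tumor line and a kidney tumor line can therefore belong to either kind, and the name of the nearest gene alone does not say which gene an element serves.

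Pooled libraries of 100254099 fragments gave 28024 peaks for Pax6-HIGH cells, 130955836 fragments gave 9821 peaks for Pax6-ON cells, and 102223606 fragments gave 14022 peaks for Pax6-OFF cells. Pax6-ON cells thus had the most fragments and the fewest peaks, and the lowest pileup (fragments over the summit) of any called peak was 30 there against 25 in each of the other lines. Scaled to 1000000 fragments these minima are 0.229 for Pax6-ON cells, 0.249 for Pax6-HIGH cells and 0.245 for Pax6-OFF cells, so Pax6-ON cells then have the lowest. Such a minimum does not show how strong the signal was at shared sites. At promoters called in all 3 lines, the scaled pileup had a median of 0.512 in Pax6-ON cells, 1.21 in Pax6-HIGH cells and 0.724 in Pax6-OFF cells. The median fold enrichment there was 4.41, 6.02 and 5.43 in the same order. At the starts of Pax6 itself, 2 intervals held peaks of Pax6-HIGH and Pax6-ON cells, 1 held a Pax6-HIGH peak alone and none held a Pax6-OFF peak. Promoter peaks stood at 7 of 15 islet beta cell markers in Pax6-HIGH cells, at 4 in Pax6-ON cells and at 1 in Pax6-OFF cells, and the insulin genes Ins1 and Ins2 had none in any line. Of 11 kidney tubule markers, 2 (Cdh16 and Pax2) had a promoter peak in Pax6-OFF cells, 1 (Aqp1) in Pax6-HIGH cells and none in Pax6-ON cells. Of 12 lens markers, 1 (Prox1) had one in Pax6-ON cells, 2 (Cryba2 and Prox1) in Pax6-HIGH cells and 2 (Cryab and Pitx3) in Pax6-OFF cells, so promoter peaks at these markers did not set the lens line apart. None of the markers of these 3 tissues, nor of 10 mesenchymal markers, had a member at its promoter.

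The members fell into 3 kinds of unequal size. Promoter members, defined as intervals within 1000 bp of an annotated transcript start, numbered 3158, or 70.5% of all members (95% Wilson interval 69.2 to 71.8). The remaining 1320 were distal. Of these, 614 had a single-copy window, while 706 (53.5%, 50.8 to 56.2) lay in sequence present more than once in the genome, judged by the median genome count of the 31-base words in the 300 bp around the strongest summit. All intervals of this kind cover counting error over intervals, which are not replicates. Among intervals called in all 3 lines the promoter share was 78.5% (77.3 to 79.7), and among those called in Pax6-HIGH cells alone it was 18.6%.

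The sequences of 4 multi-copy distal members show what the multi-copy kind looks like. They belong to the largest set of windows linked by at least 100 shared 31-base words (of 270 in a window), which held 387 union intervals on all 19 chromosomes. All 4 stretches are 61 bases long, are taken from mm9 and are written along the strand that reads AAGATGGCG, the letters searched for the zinc finger factor YY1, given in capitals.
chr15:52675959-52676019, + strand: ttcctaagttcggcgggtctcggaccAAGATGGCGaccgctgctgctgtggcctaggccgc
chr7:55559912-55559972, + strand: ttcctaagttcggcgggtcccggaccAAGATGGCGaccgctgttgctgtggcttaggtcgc
chr5:17115084-17115144, - strand: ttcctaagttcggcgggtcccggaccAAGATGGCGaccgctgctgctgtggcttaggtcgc
chr8:66925203-66925263, - strand: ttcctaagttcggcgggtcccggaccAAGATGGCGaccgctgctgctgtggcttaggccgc
Any 2 of these stretches differed at 1 to 4 of the 61 bases. The member on chromosome 15, between genes and 132085 bp from the start of Med30, had a fold enrichment of 5.55 in Pax6-HIGH cells and 6.41 in Pax6-OFF cells. The one on chromosome 5, in an intron of Sema3c, had 4.61 and 8.01. The members on chromosomes 7 and 8, both intergenic, had 4.77 and 4.89, and 4.61 and 4.39.

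Of the 387 intervals in that set, 160 were members (158 of them distal), 67 were called in all 3 lines, 126 in Pax6-HIGH cells alone and 34 in Pax6-OFF cells alone. None carried a Pax6-ON peak without both of the others. The YY1 letters stood in 378 of the 387 windows. Their words had a median of 2200.5 genome copies, and reads from such copies cannot be assigned to 1 place with certainty. The second set held 312 intervals (95 members) and the third 127 (35 members), with medians of 2338.75 and 6968.5 copies. The kind of repeat was not analysed here.

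Multi-copy shares of the distal members and of the distal sites of all 3 lines had overlapping intervals, and both lay above the 17.7% (17.2 to 18.2) of all distal intervals. Multi-copy windows made up 57.5% (54.3 to 60.6) of the distal intervals called in all 3 lines. It made up 33.2% (31.5 to 35.0) of the distal intervals of Pax6-OFF cells alone, 19.2% (15.8 to 23.2) of those with Pax6-HIGH and Pax6-ON peaks, 14.4% (12.1 to 17.2) of those with Pax6-ON and Pax6-OFF peaks, 14.9% (13.6 to 16.3) of those of Pax6-ON cells alone and 9.42% (8.95 to 9.91) of those of Pax6-HIGH cells alone. Among promoter members it was 2.37% (1.90 to 2.97). The single-copy distal members are given apart from here on.

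**Figure D1:**
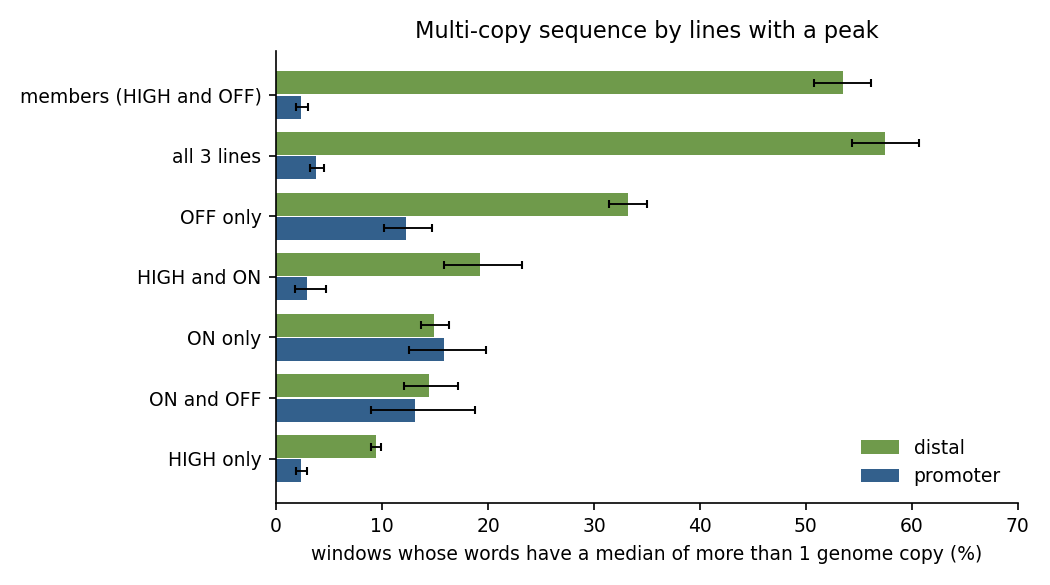
Share of 300-bp windows in multi-copy sequence (x axis, percent) for the intervals of each combination of lines (y axis), distal intervals in green and promoters in blue, with 95% Wilson intervals as bars. The distal members stand at 53.5%, beside the 57.5% of sites called in all 3 lines and far above the 9.42% of sites called in Pax6-HIGH cells alone.

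Members were weaker than the sites called in all 3 lines in both lines that had peaks. Fold enrichment is the ratio of the pileup to the background around the peak. Its median at promoter members was 4.61 in Pax6-HIGH cells and 3.96 in Pax6-OFF cells, against 6.02 and 5.43 at promoters called in all 3 lines. The median pileups were 68 and 48 fragments at promoter members, against 121 and 74. At single-copy distal members the median fold enrichment was 4.08 and 3.46, against 5.06 and 4.64 at single-copy distal sites of all 3 lines, and at multi-copy distal members it was 3.13 and 3.21. These levels are part of what the selection used, and they are given as a description.

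Scaled to 1000000 fragments of its line, the Pax6-HIGH pileup of promoter members exceeded the Pax6-OFF pileup by a median of 0.51 on the log2 scale (quartiles 0.03 and 0.97). Single-copy distal members had a median difference of 0.45, and multi-copy distal members one of 0.03. At sites called in all 3 lines the medians were 0.73, 0.51 and 0.09 for the same kinds, so the excess was not particular to members. Across the promoter members the fold enrichments of both lines had a Pearson correlation of 0.38 on the log2 scale (n = 3158), across single-copy distal members 0.40 (n = 614) and across multi-copy distal members 0.60 (n = 706). At sites called in all 3 lines the correlations were 0.55, 0.57 and 0.79 for the same kinds. The points share their libraries and the threshold that cuts both axes. Summits of both lines lay close together, with a median distance of 65 bp (quartiles 24 and 139).

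**Figure D2:**
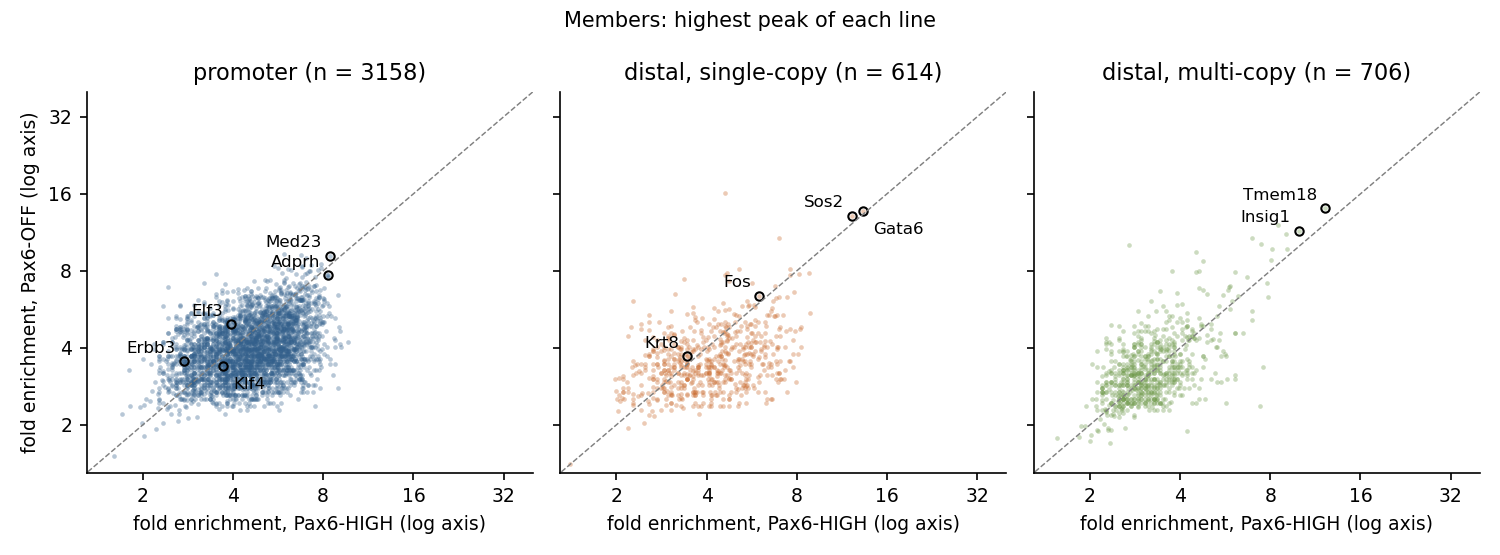
Fold enrichment of each member's highest peak in Pax6-HIGH cells (x axis, log scale) against that in Pax6-OFF cells (y axis, log scale), for 3158 promoter, 614 single-copy distal and 706 multi-copy distal members. The dashed line marks equal values. Most points lie between 2 and 8 on both axes, and the single-copy sites nearest Gata6 and Sos2 and the multi-copy site nearest Tmem18 have 12.2 to 14.1 in both lines.

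How often an interval with Pax6-HIGH and Pax6-OFF peaks lacked a Pax6-ON peak went down with the strength of the site. Strength was taken as the lower of the Pax6-HIGH and Pax6-OFF fold enrichments, and all 8819 such intervals were split in 5 bins of equal number. Among all 6567 promoter intervals with both peaks, 48.1% had no Pax6-ON peak, and among all 2252 distal ones the share was 58.6%. In the weakest bin (1.40 to 3.00) the share of promoters without a Pax6-ON peak was 79.3% (76.4 to 81.9), and from the weakest to the strongest bin it fell through 73.0%, 58.0% and 37.3% to 11.9% (10.3 to 13.6). Single-copy distal intervals had 76.9%, 72.8%, 55.6%, 41.3% and 19.6% in the same bins. The intervals of single-copy distal sites and promoters overlapped in each of the 5 bins. Multi-copy distal sites had lower shares than promoters in the first 4 bins, with intervals apart, such as 70.8% (67.0 to 74.3) in the weakest and 22.5% (15.5 to 31.6) in the fourth bin, while in the strongest bin (15.6%, 10.3 to 22.9) the intervals overlapped.

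**Figure D3:**
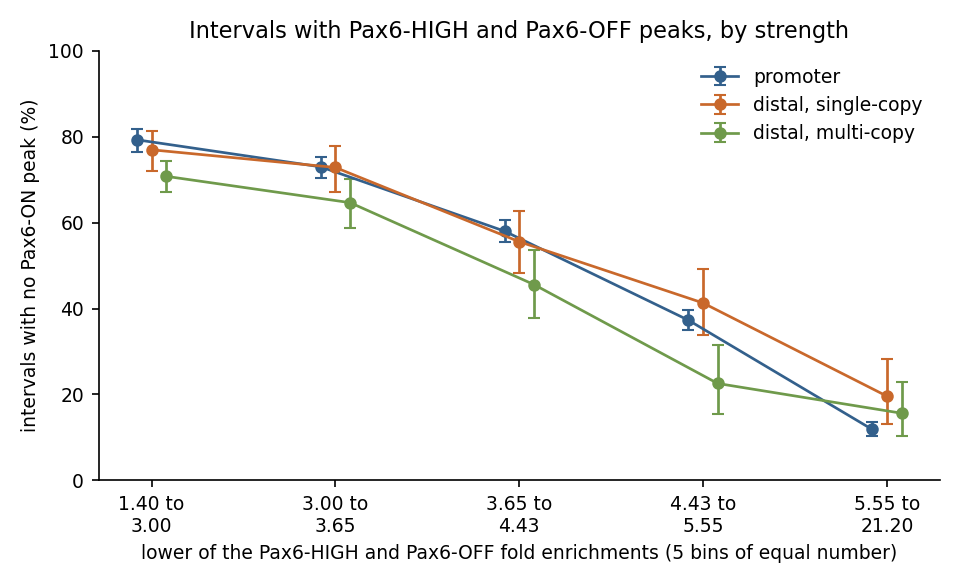
Share of intervals with Pax6-HIGH and Pax6-OFF peaks that had no Pax6-ON peak (y axis, percent), in 5 bins of the lower fold enrichment (x axis), with 95% Wilson intervals. Promoters (blue) fall from 79.3% to 11.9%, and single-copy distal sites (orange) from 76.9% to 19.6%.

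Most promoter members lay below the median pileup of promoters called in all 3 lines, but most did not lie below the tenth percentile. The lower of the Pax6-HIGH and Pax6-OFF pileups, each scaled to 1000000 fragments, had a median of 0.695 at promoters called in all 3 lines, and 2868 of the 3158 promoter members (90.8%, 89.8 to 91.8) lay below it. Of the promoter members, 1191 (37.7%) lay below the tenth percentile of 0.411. The 290 promoter members at or above the median matched the stronger side of the sites that all 3 lines shared and still had no Pax6-ON call. By fold enrichment 337 promoter members reached the median of 5.11. Single-copy distal members gave 509 of 614 (82.9%, 79.7 to 85.7) below the median pileup of their own counterparts.

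The promoter members were close to the promoters of all 3 lines in CpG content and kind of start, while the letters of NFY and YY1, given further on, differed. A coding gene started within 1000 bp at 97.1% of them (96.5 to 97.6), against 96.9% at promoters of all 3 lines. Coding genes on both strands shared 13.2% of promoter members (12.1 to 14.4), against 14.4% (13.3 to 15.7) of promoters of all 3 lines and 5.93% of those of Pax6-HIGH cells alone. Windows were CpG-rich (GC of at least 50% and an observed over expected CpG ratio of at least 0.6) at 88.2% of promoter members (87.0 to 89.3), at 87.5% of promoters of all 3 lines and at 55.7% of those of Pax6-HIGH cells alone. Of 3426 coding genes with a promoter member, 94 (2.74%) also had a Pax6-ON peak at another of their starts.

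The strongest promoter member was Med23, a subunit of the Mediator complex that links transcription factors to RNA polymerase II, on chromosome 10 (24589530 to 24590078). Its fold enrichment was 8.45 in Pax6-HIGH cells and 9.17 in Pax6-OFF cells, with pileups of 139 and 109. No Pax6-ON peak lay within 1743113 bp. It was followed by C330013J21Rik (7.87 and 8.21), 2410089E03Rik (7.85 and 8.53) and 1110002B05Rik (7.70 and 8.05). Adprh, an enzyme that removes ADP-ribose from arginine, had 8.33 and 7.68, and Map3k2, a kinase at the head of MAP kinase cascades, 8.25 and 7.68. Scfd1, a factor of vesicle fusion between endoplasmic reticulum and Golgi, had 8.32 and 7.59, and Slc35e3, a gene of a solute carrier family, 7.48 and 7.57. Gm14326 (7.30 and 8.41) and 9630033F20Rik (7.22 and 8.03) completed the 10 strongest. Of these, C330013J21Rik and Gm14326 lie close to each other on chromosome 2 in sequence with medians of 6 and 16 genome copies, where reads from copies cannot be told apart. The other 8 windows were single-copy.

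Gene families of basic cell function differed in how often their promoters had no Pax6-ON peak. The families were picked by gene symbol after the data had been seen, so their counts are a description. Of 31 promoters of proteasome subunits, activators and assembly factors with Pax6-HIGH and Pax6-OFF peaks, 24 (77.4%, 60.2 to 88.6) were members. Psma6 (5.54 in Pax6-HIGH cells and 5.82 in Pax6-OFF cells), Psma3 (7.04 and 5.48) and Psmd11 (5.39 and 5.74) were the strongest of them, while Psma2 (7.30 and 8.15) and Psmd14 (5.88 and 7.34) had a Pax6-ON peak. Of 38 promoters of cytosolic ribosomal proteins and close paralogs, 27 (71.1%, 55.2 to 83.0) were members, such as Rpl36al (7.24 and 5.57) and Rpl34 (4.88 and 4.72), while Rpl37 (8.07 and 8.66) had a Pax6-ON peak. Of 24 histone promoters, 20 (83.3%, 64.1 to 93.3) were members, led by Hist1h4c (5.71 and 6.87), but 11 of the 24 windows were multi-copy.

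Of the other 5 families, the interval of Zfp genes lay under the 48.1% of all promoters and the intervals of the remaining 4 included it. Translation initiation factors had 25 members of 42 promoters (59.5%, 44.5 to 73.0) and mitochondrial ribosomal proteins 24 of 46 (52.2%, 38.1 to 65.9). Zinc finger genes of the Zfp series had 62 members of 171 promoters (36.3%, 29.4 to 43.7), Rab GTPases of vesicle traffic 13 of 35 (37.1%, 23.2 to 53.7) and subunits of mitochondrial complex I 11 of 23 (47.8%, 29.2 to 67.0). The median lower fold enrichment was 3.88 for the proteasome, 3.74 for ribosomal proteins and 3.54 for histones, against 4.29 over all promoters. It was 4.15 for mitochondrial ribosomal proteins, 4.29 for Zfp genes, 4.38 for complex I, 4.43 for initiation factors and 4.89 for Rab genes. Within the 3 weakest bins, 20 of 24 proteasome, 23 of 26 ribosomal, 18 of 21 histone, 20 of 26 mitochondrial ribosomal, 17 of 21 initiation factor, 9 of 13 complex I, 10 of 12 Rab and 52 of 92 Zfp promoters were members, against 68.4% of all promoters there. Whether strength accounts for the difference between families was not tested.

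A closeness of the distal members to epithelial genes, which had been looked for in choosing these sites, did not show in the counts. Of the 1320 distal members, 4 lay nearest a gene of the 3 epithelial lists (69 annotated genes of adhesion and polarity, of keratins, proteases and trafficking, and of regulators), which is 0.303% of them. The same lists took 100 of all 23049 distal intervals, or 0.434%, and members were 4.0% of those 100 (1.57 to 9.84), below the 5.73% of all distal intervals but with an interval that includes it. In single-copy windows there was 1 site each nearest Krt8, Pax2 and Gata6.

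Krt8 encodes keratin 8, an intermediate filament protein of simple epithelia. Its site, intergenic on chromosome 15 (101814512 to 101815039) and 19894 bp from the start, had fold enrichments of 3.45 in Pax6-HIGH cells and 3.71 in Pax6-OFF cells, with pileups of 48 and 43. Pax2, a paired box factor of the developing kidney, had its site 46883 bp from the start on chromosome 19 (44783470 to 44784037), with 4.14 and 3.04. Against the medians of single-copy distal members, the Krt8 site was lower in Pax6-HIGH and higher in Pax6-OFF cells, and the Pax2 site the reverse. The 120 bases around each leading summit (mm9, + strand) are shown because these members lie nearest listed epithelial genes in single-copy sequence. The capitals mark the letters searched for TEAD factors (CATTCCA, read from the other strand) at Krt8 and for AP-1 (TGANTCA) at Pax2.
Krt8 site, chr15:101814819-101814938: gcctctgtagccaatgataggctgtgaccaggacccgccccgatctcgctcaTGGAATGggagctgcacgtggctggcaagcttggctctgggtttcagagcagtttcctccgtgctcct
Pax2 site, chr19:44783596-44783715: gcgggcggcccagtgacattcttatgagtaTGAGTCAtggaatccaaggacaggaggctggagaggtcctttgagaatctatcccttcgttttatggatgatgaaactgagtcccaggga

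At promoters, 7 genes of the epithelial lists had a member, of 12 that had a promoter with Pax6-HIGH and Pax6-OFF peaks, where 48.1% of all such promoter intervals were members. Sh3yl1, a gene of a phosphoinositide-binding protein, had the highest values, with 6.34 in Pax6-HIGH cells and 5.92 in Pax6-OFF cells. A start of Acp1, which is not on these lists, also lies within 1000 bp of that interval, so its values cannot be credited to Sh3yl1 alone. Elf3, an ETS factor of epithelial cells, had 3.95 and 4.95. Pkp2 (plakophilin 2, of desmosomes) had 4.69 and 4.13, Cgn (cingulin, of tight junctions) 4.07 and 3.29, Klf4 (a zinc finger factor of epithelial differentiation) 3.71 and 3.39, and Erbb3 (a receptor of the EGF receptor family) 2.74 and 3.54. The member counted for Foxa3 is the promoter of Sympk, a scaffold of RNA 3′ end processing, with 5.55 and 4.47, and the Foxa3 start lies 592 bp from its edge. Cgn, Klf4 and Erbb3 lay below the median of promoter members in both lines, and Sh3yl1, Pkp2 and the Sympk interval lay above it in both.

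Stretches of 100 bases from 4 of the member promoters follow, chosen to overlap no annotated exon (mm9, + strand). They show the letters of GRHL (AACCNGTT) in the Cgn promoter and of AP-1 (TGANTCA) in that of Erbb3. The promoter of 2410089E03Rik, among the strongest, holds the letters of NRF1 (GCGCATGC, read from the other strand). The stretch shown from the Elf3 promoter, 100 bases of an interval of 1056 bp, holds none of the 16 motifs searched.
Cgn promoter, chr3:94590415-94590514: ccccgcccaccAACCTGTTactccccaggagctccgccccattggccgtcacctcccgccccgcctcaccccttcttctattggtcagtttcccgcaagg
Erbb3 promoter, chr10:128026709-128026808: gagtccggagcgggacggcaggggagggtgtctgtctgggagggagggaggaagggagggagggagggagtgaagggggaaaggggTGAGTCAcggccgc
2410089E03Rik promoter, chr15:8119006-8119105: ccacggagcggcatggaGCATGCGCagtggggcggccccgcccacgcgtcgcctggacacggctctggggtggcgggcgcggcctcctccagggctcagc
Elf3 promoter, chr1:137155062-137155161: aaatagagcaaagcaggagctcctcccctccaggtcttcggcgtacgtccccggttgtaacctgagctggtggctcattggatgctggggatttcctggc

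Genes of the other lists held few members. Sim1, a bHLH-PAS factor expressed in the embryonic kidney, had a promoter member (6.04 and 4.81) and a distal member 2477 bp from its start (4.79 and 3.29). Cubn, an endocytic receptor of the proximal tubule, was nearest 1 intronic member (2.90 and 3.21). No distal member lay nearest a gene of the islet beta cell list, of 44 distal intervals there, and none nearest a lens gene, of 28. The intervals of these shares (0 to 8.03% and 0 to 12.1%) include the 5.73% of all distal intervals. The sites nearest the mesenchymal genes Col3a1 and Zeb1 lay in windows with medians of 3182.5 and 2238 genome copies.

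The strongest distal members were 3 sites with fold enrichments above 12 in both lines, nearest Gata6, Sos2 and Tmem18. A site on chromosome 18 (11288595 to 11288828), 236217 bp from the start of Gata6 (a zinc finger factor of endoderm and heart), had fold enrichments of 13.3 in Pax6-HIGH cells and 13.7 in Pax6-OFF cells with pileups of 253 and 167. It is 234 bp long, and its nearest annotated start of any kind belongs to 1010001N08Rik, 236030 bp away. A site on chromosome 12 (70755045 to 70755301), in an intron of Sos2, which encodes an exchange factor for Ras, had 12.3 and 13.1 with pileups of 157 and 159. Of the 10 strongest distal members, only these and the site nearest Myt1l had single-copy windows. The other 7, nearest Tmem18, Insig1, Drosha, Zswim6, Dph5, Sec16b and Frmd4a, had windows with a median of 3 to 4044 copies and fold enrichments of 8.02 to 12.2 in Pax6-HIGH cells and 8.85 to 14.1 in Pax6-OFF cells.

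Below these, the single-copy distal members lay nearest genes of several kinds. The site nearest Myt1l, a neural zinc finger factor, was 237329 bp from its start and had 8.77 and 7.81. Sites nearest Ccnl1 (7.62 and 7.68), the oxygen sensor Egln3 (6.79 and 6.97), Cd83 (7.86 and 6.62), the stress gene Gadd45a (7.0 and 6.34, in an intron of Gng12) and Pla2g7 (6.65 and 6.10) were among the 15 strongest, a list drawn up after the copy numbers had been seen. A pair of members flanked Fos, a subunit of AP-1. One lay 18532 bp from its start on chromosome 12 (86795934 to 86796753) with 6.0 and 6.41, and the other 11172 bp from it (86826823 to 86827357) with 5.82 and 5.78. A Pax6-ON peak lay 11213 bp from the second.

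The Sos2 site is shown because the median of its 31-base words is single-copy, with up to 4 copies for single words, and yet its letters repeat. The 200 bases around the summit (mm9, + strand) match themselves at 79.2% of bases when shifted by 51, and they hold none of the 16 motifs searched.
Sos2 site, chr12:70755000-70755199: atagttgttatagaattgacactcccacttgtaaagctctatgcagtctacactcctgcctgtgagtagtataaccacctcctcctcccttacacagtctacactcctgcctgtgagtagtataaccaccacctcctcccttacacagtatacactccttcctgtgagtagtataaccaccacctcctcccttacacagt
A window called single-copy by its median word can thus hold a short unit in tandem.

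Single-copy distal members had the sequence of promoters more often than sites of 1 line. CpG-rich windows made up 26.2% of them (22.9 to 29.8), against 28.0% (23.8 to 32.6) of the sites of all 3 lines, 2.63% (2.37 to 2.93) of those of Pax6-HIGH cells alone and 3.49% (2.74 to 4.43) of those of Pax6-OFF cells alone. The letters GGGGCGGGG of SP/KLF stood in 9.77% (7.67 to 12.4) of them, against 9.34% at sites of all 3 lines and 2.06% in all single-copy distal windows. Of all distal members, 66.0% had an intergenic summit and 31.5% an intronic one, and the median distance to the nearest coding start was 32455 bp. More than 100000 bp separated 24.3% (22.1 to 26.7) of them from a coding start, against 29.9% (29.1 to 30.7) of the distal sites of Pax6-HIGH cells alone.

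The share of single-copy distal members with the AP-1 letters lay between those of Pax6-HIGH cells alone and of Pax6-OFF cells alone. The share with the NEUROD E-box letters also lay between them, with an interval that includes the share of Pax6-OFF cells alone. For the other factors, the values below do not give both of these shares. The background of all single-copy distal windows also holds sites of Pax6-ON cells alone, whose own share is not given here. Letters were searched on both strands of the 300 bp around the summit, and a match is a description of the sequence. The AP-1 letters TGANTCA stood in 27.7% of members (24.3 to 31.4), in 31.6% (27.2 to 36.3) of the sites of all 3 lines, in 18.2% of those of Pax6-HIGH cells alone, in 40.8% of those of Pax6-OFF cells alone and in 28.98% of all single-copy distal windows. The NEUROD E-box letters CAGATGG stood in 8.31% of members (6.37 to 10.8), against 14.7% in Pax6-HIGH cells alone, 7.42% in Pax6-OFF cells alone and 12.3% of all such windows. The FOXA letters TGTTTAC stood in 5.05% (3.58 to 7.08) against 10.7% in Pax6-HIGH cells alone and 8.64% of all such windows. TEAD letters were in 4.07% (2.77 to 5.94), against 10.6% in Pax6-OFF cells alone and 6.70% of all such windows, and GRHL letters in 0.977% (6 of 614) against 1.78% of all such windows. The CTCF motif matched 4.72% (3.31 to 6.70) of members and 2.79% of all such windows.

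**Figure D4:**
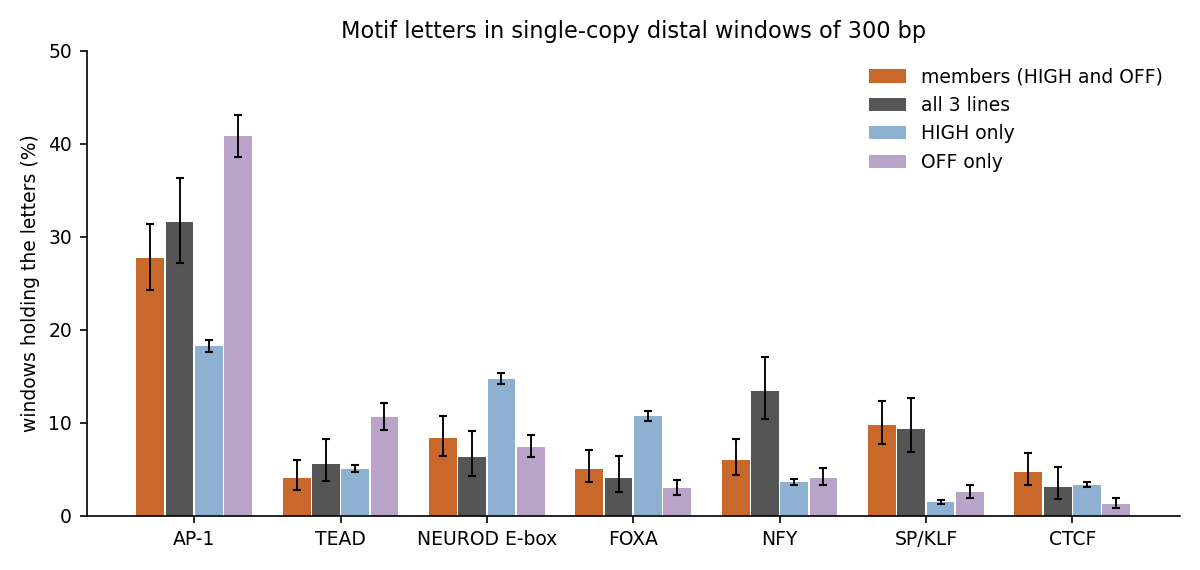
Share of single-copy distal windows of 300 bp that hold the letters of each factor (y axis, percent), for members, sites of all 3 lines and sites of Pax6-HIGH or Pax6-OFF cells alone, with 95% Wilson intervals. AP-1 letters stand in 27.7% of members, between 18.2% for Pax6-HIGH alone and 40.8% for Pax6-OFF alone.

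The letters of the CCAAT-binding factor NFY (CCAATCA) differed between members and the sites that all 3 lines shared. They stood in 10.4% of promoter members (9.43 to 11.6) against 16.02% (14.8 to 17.3) of promoters of all 3 lines, and 10.7% of all promoter windows. They rose with strength in both classes, from 6.50% in the weakest bin to 18.2% in the strongest among members and from 5.08% to 21.0% among promoters of all 3 lines, and within each of the 5 bins the intervals of both classes overlapped. In single-copy distal windows they stood in 6.03% of members (4.40 to 8.20) and 13.4% (10.4 to 17.1) of sites of all 3 lines. In the strongest bin, which held 20 of the 614 members but 82 of the 396 sites of all 3 lines, they stood in 0 of 20 (Wilson upper bound 16.1%) and in 32.9% (23.7 to 43.7). In the other 4 bins the intervals overlapped. The YY1 letters stood in 4.84% of promoter members (4.15 to 5.65), in 2.82% (2.31 to 3.43) of promoters of all 3 lines and in 2.95% of all promoter windows. That order held in each of the 5 strength bins, although the intervals were apart only in the third (5.40%, 4.06 to 7.15, against 1.66%, 0.903 to 3.03). Members and promoters of all 3 lines had overlapping intervals for ETS letters (CCGGAAGT, 8.93% against 8.07%, and 6.62% of all promoters), NRF1 letters (6.998% against 6.86%, and 4.98%) and SP/KLF letters (27.6% against 28.4%, and 22.4%).

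Where distal members lay densest, they lay in repeated sequence. The genes nearest to the most distal members were Gm10139 with 10 of 23 distal intervals, 2410141K09Rik with 9 of 22, Gm6901 with 9 of 38, Gm17353 with 7 of 27, Olfr161 with 7 of 15 and Gm7112 with 6 of 50, so the order of the counts is not that of the shares. All members nearest the first 3 and Gm17353 were multi-copy and lay on chromosome 13 between 65515727 and 66574194, with fold enrichments of 1.84 to 4.30 in Pax6-HIGH cells. The densest group of distal members within 50000 bp was there too (66545167 to 66592086), with 7 members. It was followed by groups of 6 at 65444921 to 65482268 (nearest Zfp369) and at 66246026 to 66283215 (nearest Gm10772 and Gm16512), and all members of these 3 groups were multi-copy. Among single-copy members alone, a choice added after the copy numbers were seen, the densest group held 4 members on chromosome 12 (88131230 to 88174963) nearest 6430527G18Rik and Gm6772, with fold enrichments of 4.14 to 5.78 in Pax6-HIGH cells and 3.46 to 4.89 in Pax6-OFF cells. That span held 9 union intervals, 1 of them with a Pax6-ON peak.

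The share of promoters without a Pax6-ON peak varied between chromosomes. It ran from 33.2% (28.8 to 37.9) on chromosome 1 and 34.1% (29.6 to 38.9) on chromosome 4 to 58.7% (53.8 to 63.4) on chromosome 10 and 61.8% (55.6 to 67.7) on chromosome 16. In the 2 strongest bins it ran from 6.82% (3.16 to 14.1) on chromosome 19 to 43.5% (37.0 to 50.2) on chromosome 10. Pileups also varied by chromosome. At promoters called in all 3 lines, the median Pax6-HIGH pileup on chromosome 6 was 1.98 times that of all chromosomes and on chromosome 1 it was 1.46 times, the Pax6-OFF pileup was 1.38 times on chromosome 13 and 0.757 times on chromosome 4, and the Pax6-ON pileup stayed between 0.910 and 1.07 times. Chromosome 10 had 1.11 times in Pax6-HIGH and 1.24 times in Pax6-OFF cells. Across the 19 chromosomes, the log2 ratio of the relative Pax6-ON pileup to that of the other lines had a Pearson correlation of -0.24 and a Spearman correlation of -0.18 with the share, and of -0.49 and -0.47 with the share in the 2 strongest bins. The points share their libraries and differ in gene number, and the values are a description.

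**Figure D5:**
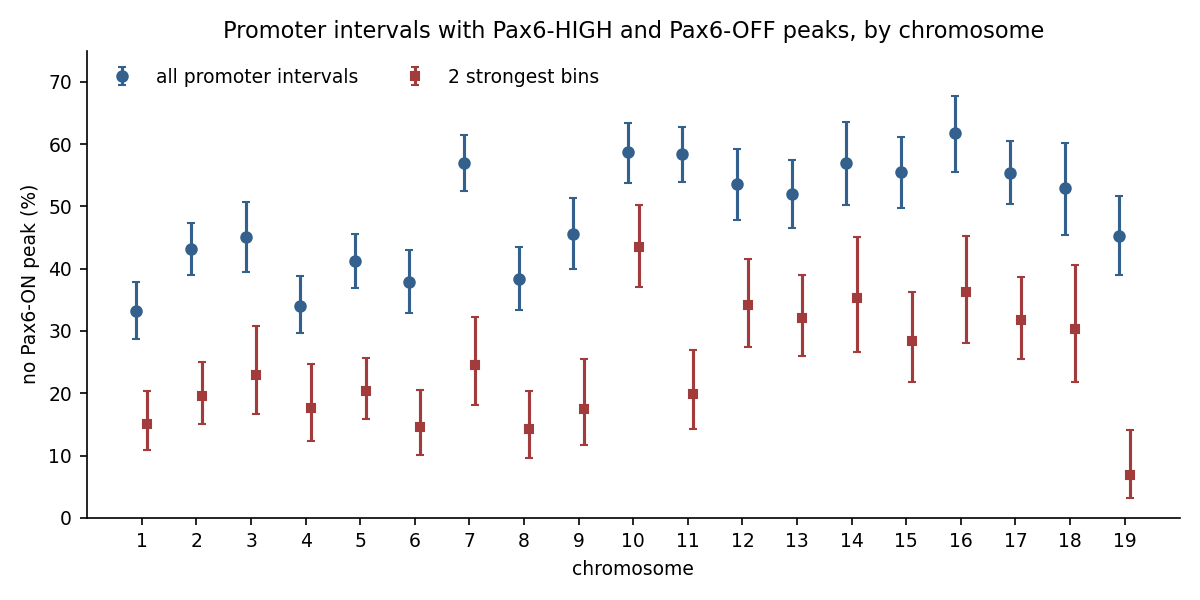
Share of promoter intervals with Pax6-HIGH and Pax6-OFF peaks that had no Pax6-ON peak (y axis, percent) on each chromosome (x axis), for all such intervals (blue circles) and those of the 2 strongest bins (red squares), with 95% Wilson intervals. Chromosome 10 stands at 58.7% and 43.5%, and chromosome 1 at 33.2% and 15.02%.

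Few members had a Pax6-ON peak close by, although this distance does not show how near a site came to a Pax6-ON call. The distance to the nearest Pax6-ON peak had a median of 108216 bp, and 34 of the 4478 members had one within 1000 bp. The closest were 189 bp away (nearest Gm10715, in a window with a median of 5 copies), 323 bp away at the promoter of Tagln2, an actin-binding protein, and 343 bp away near C130026I21Rik. Just outside the rule, the Pax6-ON peak overlapped the others by 26 bp at the promoter of Sp140, by 120 bp near Ankrd9 and by 138 bp near Gm13145. At Tagln2 the fold enrichment was 3.07 in Pax6-HIGH cells and 2.68 in Pax6-OFF cells, and at the Ankrd9 site it was 3.81, 4.15 and, in Pax6-ON cells, 2.77.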

How the data were processed

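Per the labels, the file headers and the study's methods, the authors trimmed the paired 75 bp reads with Trim Galore 0.4.1, aligned them to mm9 with Bowtie2 2.2.6 and called peaks with MACS2 2.1.1 on both replicates of a line pooled, with no control, at a q-value cut of 0.05 and a local background over 6250 bp. Fragments were not shifted for the Tn5 insertion site, which can move summits. All duplicates in the input were kept, and a filter on mapping quality is not given in the sources used here. The deposited pileup is a signal in fragments, unscaled for depth. The deposited fold enrichment is a ratio of pileup to local background, and the deposited q-values are −log10 values of the authors' caller.

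Members and gene lists were chosen with earlier results of these data known. Peaks were merged with a minimum overlap of 1 bp and annotated with GENCODE M1 on the same build. With 1 pooled call per line no test between lines was possible, so shares carry 95% Wilson intervals (SciPy 1.17.1) over intervals. Named sites were the 10 strongest promoter and 10 strongest distal members, members of the listed epithelial genes, the 6 genes nearest most distal members, the 3 densest groups within 50000 bp, and 3 intervals on each side of the rule's edge. Genome copies of 31-base words were counted on both strands with numba 0.67.0, and a window was multi-copy above a median of 1. The peak classes and the letter search were tested on simulated data. Some items are not reported here.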

Additional observations from a re-analysis of the deposited data

Results flagged for a closer look

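Chromosome X lies outside the merged set of chromosomes 1 to 19. By the same steps it held 147 intervals with Pax6-HIGH and Pax6-OFF peaks and no Pax6-ON peak, of 844 union intervals (17.4%), against 134 called in all 3 lines. On chromosomes 1 to 19 the share was 12.9%. It drew attention only because these peaks are in no comparison above, and is given as a value.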

How the results depend on the processing

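No paired analysis was possible because both replicates of a line were pooled in 1 call and no result came from a test, and no replicate could be left out for the same reason. With the same number of peaks in each line (9821), there were 1539 members, 1329 promoter and 210 distal, a promoter share of 86.4%, with 1 distal member nearest a listed epithelial gene. A q-value below 0.001 gave a promoter share of 72.2% and a median Pax6-HIGH fold enrichment of 3.6 at distal members. The promoter share was 69.1% within 500 bp, 72.9% within 2500 bp and 68.5% with protein-coding starts only. With any listed start within 100000 bp, 11 distal members counted as near an epithelial gene. That wider count was not made over all distal intervals, so no background share stands beside it. Chosen after seeing the data, single-copy windows gave 614 distal members, a promoter share of 83.4% and distal medians of 4.08 (Pax6-HIGH) and 3.46 (Pax6-OFF), and windows of fewer than 10 copies gave 816, 79.4% and, in Pax6-HIGH cells, 3.67. Strength by the depth-scaled pileup gave 9.29% without a Pax6-ON peak in the strongest promoter bin and 81.2% in the weakest distal bin. The other 52 comparisons stayed within 1.5 times (counts) or the main interval (shares and medians). The single-copy and multi-copy distal shares by strength are not among them. At 200 bp, 30 of 32 motif shares were lower. Pax6-ON cells, with the fewest peaks, limit what absence of a call can show: it is not shown that these sites are closed there.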
